A study of Mus musculus and Mus spretus with 72 samples.

Results

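The 7 genes Pip4k2a, Pdlim1, Cecr2, Tomm40l, Ak8, Ubr4 and Cdk3 are described here across all arrays of a two-channel array study of mouse subspecies. They were picked because Mus spretus differed from house mice in the same direction in the 3 tissues (brain, liver/kidney, testis), or in most of them, so the values of spretus against house mice chose the genes. They are given as a description with no p, and where they lie past or short of the adjusted threshold, that is part of the description and supports nothing. The genes are 7 of the 14386 gene symbols on the array and are read by 8 of its 22089 probes, since Cecr2 has a pair of probes, called probe 1 and probe 2 here. All 8 probes had a value on all 72 arrays. Every probe is spotted on 2 neighbouring positions, and the mean of its 2 spots is used.

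Each array set RNA of 1 male mouse, about 12 weeks old, against RNA of that tissue pooled from 9 laboratory mice of C57BL6. In each tissue there were 3 arrays of spretus (M. spretus), 6 of ssp (M. musculus of a subspecies the labels leave unnamed), 3 of cas (M. m. castaneus), 6 of mus (M. m. musculus) and 6 of dom (M. m. domesticus). The last 4 groups, 21 arrays per tissue, are called house mice. The labels name no treatment or engineered allele, do not say where the mice came from, and do not say how liver and kidney were combined. Values are log2 ratios of a mouse over the pool, where both the base of the logarithm and the direction are the likely reading and not stated. A value of 1 is then a signal at double that of the pool. The values are array signals, and whether the probes match the spretus sequence was not tested. Because every value is relative to C57BL6, the data hold no level of a gene in one tissue against another, and the labelled tissue could not be checked by which markers are present. In whole tissue, fewer cells of a type and less RNA per cell cannot be told apart.

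The 7 genes belong to unrelated pathways. Pip4k2a is a lipid kinase that makes phosphatidylinositol 4,5-bisphosphate from phosphatidylinositol 5-phosphate. Ubr4 is a large ubiquitin ligase that recognises destabilising N-terminal residues, and Ak8 belongs to the adenylate kinases, which interconvert adenine nucleotides. Tomm40l is a paralogue of Tomm40, the channel through which proteins enter mitochondria. Cdk3 is a cyclin-dependent kinase that pairs with cyclin C at exit from quiescence, and RefSeq lists the C57BL/6J locus as a transcribed pseudogene. Pdlim1 carries a PDZ and a LIM domain and binds alpha-actinin on actin filaments. Cecr2 is a bromodomain protein of an ISWI chromatin remodelling complex, known in mice for its role in neural tube closure. M. spretus is a species separate from the house mouse, with which it can still be crossed in the laboratory.

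The promoters of Pip4k2a, Ubr4 and Pdlim1 are shown because of their profiles over all 72 arrays. There Pip4k2a and Ubr4 were the most similar pair among the 7 genes (r = 0.79), and Pdlim1 had the opposite direction in spretus. That r includes the spretus values the genes were picked on. Over the 63 house mouse arrays it was 0.16, and that of Pip4k2a with Pdlim1 was 0.43. The promoters were found in RefSeq (GRCm38.p6), which gave a promoter for 4 of the 7 genes, the fourth being Ak8. Promoters of Cecr2, Tomm40l and Cdk3 were not used here. Each sequence runs 5′ to 3′ on the strand of its gene, from 250 bases before the start to 50 after it, and lies at chr2:18998072-18998371 (minus strand) for Pip4k2a, at chr4:139380409-139380708 (plus strand) for Ubr4 and at chr19:40271567-40271866 (minus strand) for Pdlim1. Capitals mark the GC box GGGCGG on either strand and the NRF1-type motif, which is GCGCA and GCGC with any 1 base between them. These are reference sequences and say nothing of the sequence in spretus.
Pip4k2a: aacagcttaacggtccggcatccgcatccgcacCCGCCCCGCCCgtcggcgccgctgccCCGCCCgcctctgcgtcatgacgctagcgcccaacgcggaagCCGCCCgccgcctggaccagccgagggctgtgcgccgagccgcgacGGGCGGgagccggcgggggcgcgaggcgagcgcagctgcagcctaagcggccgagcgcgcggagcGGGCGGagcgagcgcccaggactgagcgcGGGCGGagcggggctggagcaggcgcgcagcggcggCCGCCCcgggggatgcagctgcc
Ubr4: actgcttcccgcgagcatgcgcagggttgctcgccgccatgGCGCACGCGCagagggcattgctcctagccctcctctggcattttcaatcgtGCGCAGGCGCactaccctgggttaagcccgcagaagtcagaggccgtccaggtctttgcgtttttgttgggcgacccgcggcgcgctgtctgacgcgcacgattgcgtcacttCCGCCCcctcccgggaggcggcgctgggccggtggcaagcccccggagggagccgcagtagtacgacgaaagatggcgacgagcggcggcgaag
Pdlim1: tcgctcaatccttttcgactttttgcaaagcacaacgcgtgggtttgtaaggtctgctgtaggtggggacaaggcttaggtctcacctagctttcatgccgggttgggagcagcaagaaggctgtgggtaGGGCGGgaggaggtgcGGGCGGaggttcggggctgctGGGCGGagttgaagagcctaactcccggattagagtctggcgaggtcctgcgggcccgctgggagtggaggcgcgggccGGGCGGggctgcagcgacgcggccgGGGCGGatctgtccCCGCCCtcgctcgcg
The GC box was found 8 times in Pip4k2a, 6 times in Pdlim1, 1 time in Ubr4 and 0 times in Ak8, against 35.7% of all 32851 promoters with at least 1 match. The NRF1-type motif was found 2 times in Ubr4 and in 4.6% of all promoters. CCAAT (37.4% of promoters) and TATAAA (13.6%) had no match in the 4 windows, on either strand. Neighbouring GC boxes can share a base. The GC content was 79.7% in Pip4k2a, 67.3% in Ubr4, 65.7% in Pdlim1 and 60.7% in Ak8, against a median of 52.7%. None of the 4 motifs was found in all of Pip4k2a, Ubr4 and Ak8, the 3 genes with a promoter that were higher in spretus.

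The arrays were clustered into 3 sets by the spots without a value that they share. The number of sets was fixed at 3, and the labels name none of them. The r of missing spots between arrays had a median of 0.61 within sets. Its lowest value within a set was 0.018, under the highest between sets, 0.038. The 24 arrays of set 2 held every spretus array except spretus 2 in liver/kidney, which belongs with cas 3 in brain to the 2 arrays of set 3, while the other 46 arrays formed set 1. In brain, set 2 also held 3 ssp, 2 cas and 2 mus arrays. In liver/kidney it held the 3 cas arrays as its only house mice. In testis it held 3 cas and 2 mus arrays and, by a weak assignment, dom 1. Differences within set 2 are therefore given beside those over all arrays. Only groups with at least 2 arrays in a set entered its differences, so those of testis leave out dom 1. The ranges within set 2 include dom 1. Spots with a value numbered 42825 to 44832 of 46128 per array. One brain array, mus 8, is mus by its title and domesticus by its channel label.

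In spretus, 5 genes were higher than in house mice in all 3 tissues (Tomm40l, Ak8, Ubr4, Cdk3 and Pip4k2a), and Pdlim1 and Cecr2 probe 1 were lower. Those 7 of the 8 probes were past an adjusted p of 0.05 (limma) in each tissue, where the share of all probes was 3.95% (brain), 7.49% (liver/kidney) and 9.42% (testis). The share past it and higher in spretus was 1.88%, 3.03% and 5.63%, and the share past it and lower was 2.07%, 4.46% and 3.79%. Within set 2 alone, 4, 0 and 3 of the 8 probes were past it, where 0.29%, 0.0% and 2.42% of all probes were. With the set as a term in the fit, 7 of the 8 were past it in brain and 7 in testis, and in liver/kidney the term could not be fitted. With the set as a random block, 4 of the 8 were past it in liver/kidney, where Pdlim1, Tomm40l and Cdk3 were not. The share of all probes past it with the set as a term or random block is not given here. In the same direction in all 3 tissues, 51 of 20589 probes were past it, or 0.248%. As the genes were picked on these values, the counts restate the choice. Cecr2 probe 2 was the member outside, with differences of 0.14 ± 0.08, 0.03 ± 0.06 and 0.03 ± 0.05 (SE) in brain, liver/kidney and testis. The difference nearest to it among the other probes was that of Ubr4 in testis, 0.31 ± 0.08.

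**Figure D1:**
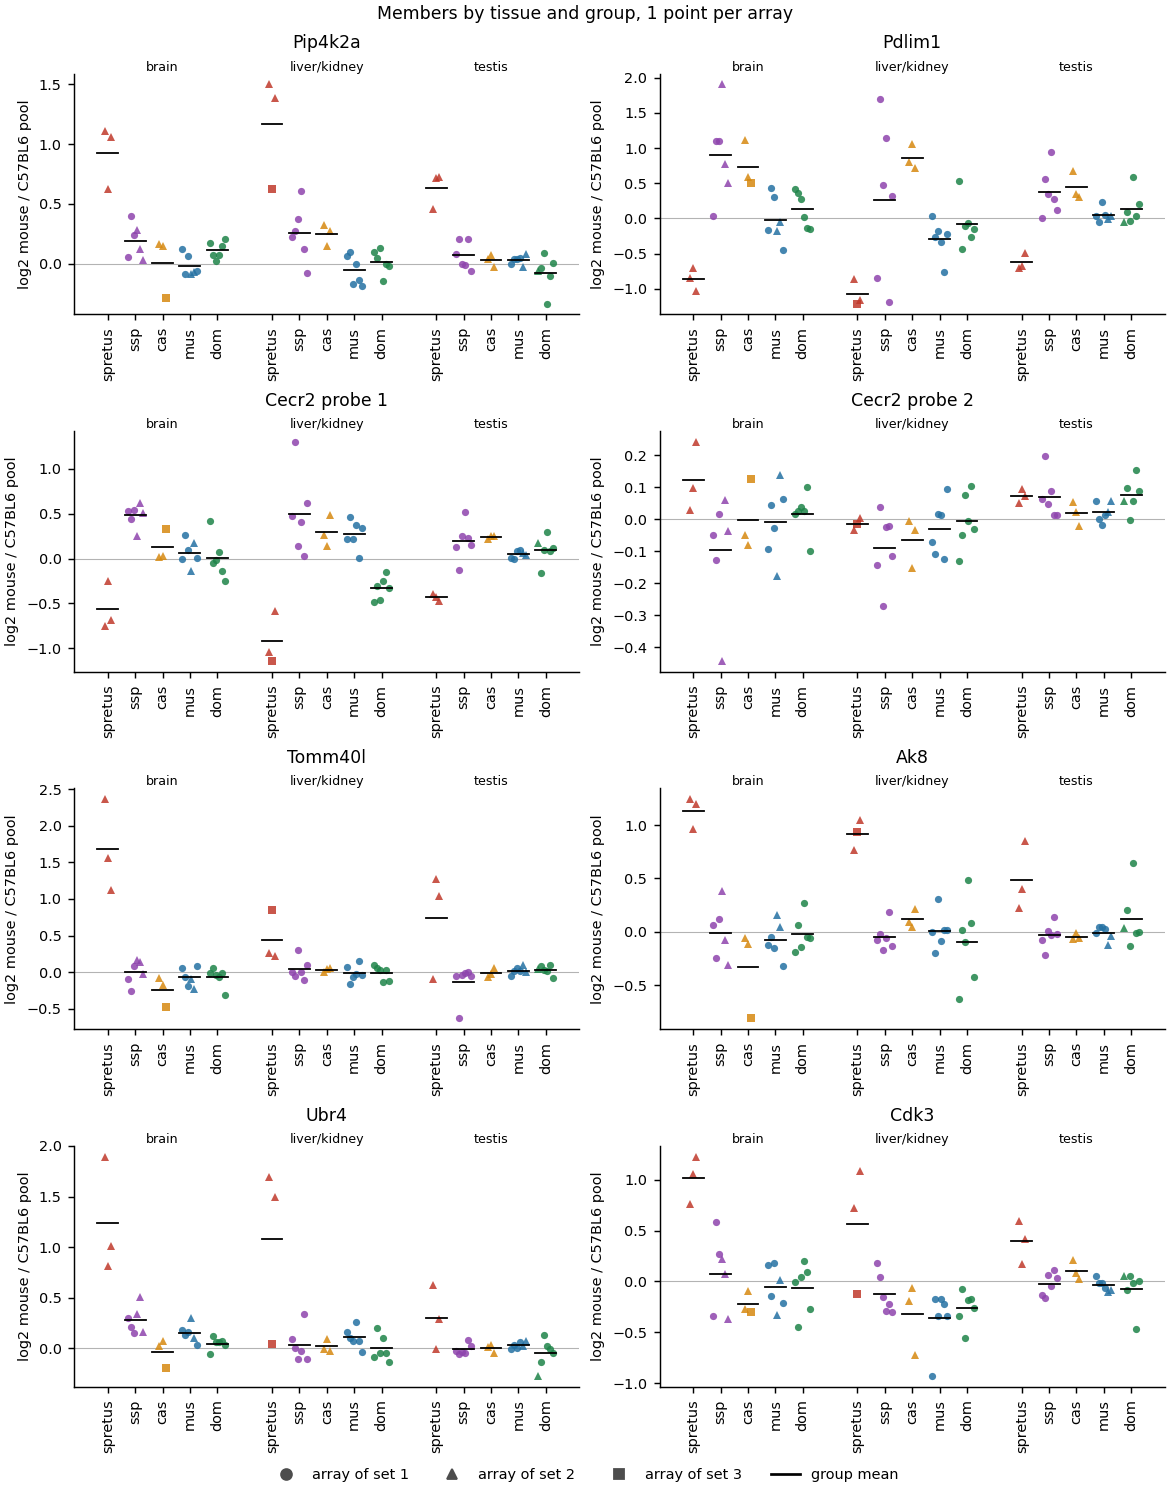
Log2 ratio of each mouse over the C57BL6 pool for the 8 probes, with 1 point per array, groups ordered spretus, ssp, cas, mus and dom within each tissue. Point shape gives the set of arrays and the line the group mean. Spretus lies outside the range of house mice in 12 of the 24 combinations of probe and tissue, 6 of them in brain, and overlaps with it in the others. Of all probes, 2.25% (brain), 1.54% (liver/kidney) and 3.64% (testis) did so, and the members were picked on these values.

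Pip4k2a kept its direction in every spretus array. In brain the spretus values were 1.11, 0.62 and 1.06, against -0.29 to 0.40 (median 0.08) in house mice. In liver/kidney they were 1.5, 0.62 and 1.38 in spretus, against -0.18 to 0.61 (median 0.10) in house mice. In testis they were 0.46, 0.72 and 0.72 in spretus, against -0.33 to 0.21 (median 0.01) in house mice. The groups did not overlap in any tissue, although in liver/kidney spretus 2 (0.62) lay next to ssp 4 (0.61). The difference of spretus from house mice was 0.86 ± 0.10 (brain), 1.05 ± 0.13 (liver/kidney) and 0.62 ± 0.07 (testis), with SE, or 1.81-, 2.07- and 1.53-fold. Within set 2 the differences were 0.85 ± 0.12, 1.19 ± 0.11 and 0.61 ± 0.08. With quantile normalisation the testis difference was 0.37. In brain the group means of house mice lay within their spread of each other, from 0.19 ± 0.14 (SD, n = 6) in ssp to -0.02 ± 0.09 (SD, n = 6) in mus. In liver/kidney ssp averaged 0.25 ± 0.23 and cas 0.25 ± 0.09, against -0.05 ± 0.12 in mus and 0.02 ± 0.10 in dom. There the 3 cas arrays, all of set 2, lay above every mus and dom array, all of set 1. For 2.75% of all probes cas lay outside the range of dom and mus on either side. Cas minus dom and mus was 0.27 ± 0.13 (SE, adjusted p = 0.347 by limma) for Pip4k2a in liver/kidney.

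Tomm40l had the largest difference of the 8 probes, in brain. The spretus brains read 2.36, 1.55 and 1.12, against -0.47 to 0.16 (median -0.07) in house mice, and spretus minus house mice was 1.77 ± 0.14 (SE), or 3.42-fold. Every spretus brain lay far above every house mouse brain, and within set 2 the difference was 1.74 ± 0.21. The other tissues were less even. In liver/kidney the spretus values were 0.26, 0.85 and 0.22, against -0.16 to 0.31 (median 0.00) in house mice, and ssp 3 (0.31) lay above 2 of the 3 spretus arrays. The difference there was 0.43 ± 0.10, was 0.23 without spretus 2, which is the array of set 3, and 0.21 ± 0.10 within set 2, neither still past the threshold. In testis spretus 1 read -0.09, inside the house mouse range of -0.63 to 0.09 (median 0.01), while spretus 2 and 3 read 1.27 and 1.04. The testis difference of 0.76 ± 0.16 was 1.18 without spretus 1 and 0.50 without spretus 2, the last no longer past the threshold, and 0.43 with quantile normalisation.

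The 2 spots of Tomm40l disagreed on the testis arrays that were high. The first and second spots read 2.08 and 0.47 on the spretus 2 array, and 0.01 and 2.07 on the spretus 3 array, so 1 spot carried most of each mean. On the spretus brain arrays they read 2.86 and 1.86, 1.72 and 1.39, and 1.16 and 1.07, high on both spots. Across all 72 arrays the 2 spots correlated with r = 0.65 for Tomm40l, a description over arrays that share a pool. The same r was 0.97 for Pdlim1, 0.90 for Cecr2 probe 1, 0.88 for Ubr4, 0.84 for Ak8, 0.82 for Pip4k2a and 0.74 for Cdk3. It was 0.19 for Cecr2 probe 2, whose values stayed near 0.

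**Figure D2:**
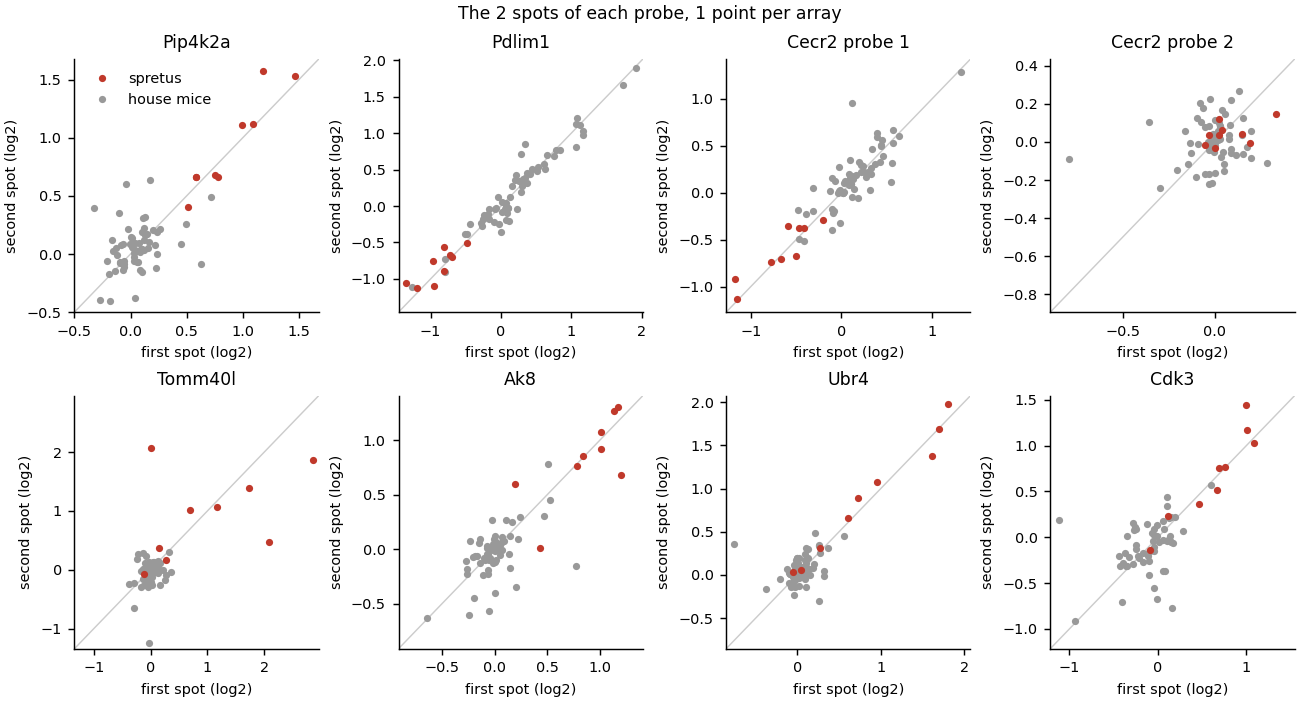
First against second spot of each probe as log2 ratios, with 1 point per array, spretus in red and house mice in grey, and the line of equal values. Points follow the line for Pdlim1 (r = 0.97), and for Tomm40l a pair of spretus arrays lies far from it, at 2.08 against 0.47 and at 0.01 against 2.07.

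Ak8 was the higher gene with the narrowest spread among spretus arrays in brain and liver/kidney. The spretus values were 1.24, 0.96 and 1.20 in brain, against -0.81 to 0.39 (median -0.06) in house mice. In liver/kidney they were 0.77, 0.94 and 1.04 in spretus, against -0.63 to 0.49 (median -0.01) in house mice. Neither tissue showed an overlap, and the array of set 3 (0.94) lay between the other 2 spretus arrays in liver/kidney. In testis spretus read 0.22, 0.40 and 0.85, against -0.22 to 0.64 (median -0.02) in house mice, where dom 6 (0.64) lay above 2 of the spretus testes. The difference was 1.24 ± 0.13 (brain), 0.92 ± 0.14 (liver/kidney) and 0.48 ± 0.11 (testis), with SE. The differences within set 2 were 1.13 ± 0.14, 0.79 ± 0.13 and 0.56 ± 0.13. The testis difference was 0.30 without spretus 3, no longer past the threshold, and 0.30 with quantile normalisation. The lowest house mouse brain was cas 3 (-0.81), the array of set 3, and the other cas brains read -0.06 and -0.12.

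Ubr4 differed widely between the spretus arrays. In brain spretus read 1.89, 0.81 and 1.01, against -0.20 to 0.51 (median 0.12) in house mice, with no overlap. In liver/kidney spretus 1 and 3 read 1.70 and 1.49 and spretus 2 read 0.05, against -0.14 to 0.34 (median 0.00) in house mice. In testis spretus read 0.63, -0.01 and 0.29, against -0.27 to 0.14 (median 0.01) in house mice. By number in the array title, spretus 1 was the highest and spretus 2 the lowest of the 3 in every tissue, and in liver/kidney and testis spretus 2 lay inside the house mouse range. The liver/kidney array of spretus 2 is the array of set 3. The labels do not say that arrays of 1 number are of 1 mouse. The 2 spots of the liver/kidney array of spretus 2 read 0.04 and 0.05, and those of the spretus 2 testis array -0.06 and 0.04. Spretus minus house mice was 1.13 ± 0.13 (brain), 1.04 ± 0.18 (liver/kidney) and 0.31 ± 0.08 (testis), with SE. Within set 2 it was 1.04 ± 0.20, 1.57 ± 0.12 and 0.28 ± 0.13. In testis it was 0.15 without spretus 1, 0.47 without spretus 2 and 0.32 without spretus 3, and the first and the last of these were no longer past the threshold.

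Cdk3 had a low value on the array of set 3 as well. The spretus brains read 0.76, 1.06 and 1.22, against -0.45 to 0.59 (median -0.00) in house mice, with no overlap. In liver/kidney spretus 1 and 3 read 0.72 and 1.09 and spretus 2 read -0.12, against -0.93 to 0.18 (median -0.22) in house mice. Spretus 2 thus lay inside the house mouse range there, above its median. In testis spretus read 0.59, 0.17 and 0.41, against -0.47 to 0.21 (median -0.01) in house mice, and cas 1 (0.21) lay above spretus 2. For spretus minus house mice, Cdk3 had 1.08 ± 0.15 (brain), 0.83 ± 0.18 (liver/kidney) and 0.40 ± 0.09 (testis), with SE, and within set 2 it was 1.13 ± 0.15, 1.23 ± 0.23 and 0.39 ± 0.10. Without spretus 3 the liver/kidney difference was 0.57, and without spretus 1 the testis difference was 0.30, both no longer past the threshold. Every group of house mice averaged below 0 in liver/kidney, from -0.12 ± 0.20 (SD, n = 6) in ssp to -0.36 ± 0.29 (SD, n = 6) in mus, which are within their spread of each other.

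Pdlim1 was lower than the pool on all 9 spretus arrays. In brain spretus read -0.85, -0.70 and -1.03, against -0.45 to 1.91 (median 0.36) in house mice. In testis spretus read -0.70, -0.68 and -0.49, against -0.05 to 0.94 (median 0.12) in house mice. These groups did not overlap. In liver/kidney spretus read -0.86, -1.21 and -1.16, against -1.18 to 1.70 (median -0.11) in house mice. The overlap there came from ssp 5 (-1.18) and, just above the highest spretus array, ssp 1 (-0.85), both arrays of set 1, while the other 19 house mouse arrays lay at -0.76 or higher. Spretus minus house mice was -1.30 ± 0.23 (brain), -1.26 ± 0.35 (liver/kidney) and -0.88 ± 0.14 (testis), with SE. The signal relative to the pool in house mice was thus 2.46-, 2.40- and 1.84-fold that of spretus. Within set 2 the differences were -1.46 ± 0.26, -1.87 ± 0.16 and -0.85 ± 0.10. In liver/kidney the difference was -1.20 without spretus 2 and -1.22 without spretus 3, neither still past the threshold.

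In brain the size of the Pdlim1 difference varied with the house mouse group that spretus was set against. Spretus minus ssp was -1.76 ± 0.26 and spretus minus cas -1.60 ± 0.30 in brain, against -0.84 ± 0.26 for spretus minus mus and -0.99 ± 0.26 for spretus minus dom. The order of the brain means was ssp 0.90 ± 0.63, cas 0.74 ± 0.33, dom 0.13 ± 0.25, mus -0.02 ± 0.33 and spretus -0.86 ± 0.16 (SD). Ssp and cas lay within their spread of each other, as did dom and mus. The Pdlim1 contrasts of ssp and of cas in brain were not past the threshold (adjusted p = 0.139 and 0.283 by limma). Cecr2 probe 1 varied with the group too, from -0.57 (dom) to -1.045 (ssp) in brain and from -0.59 (dom) to -1.42 (ssp) in liver/kidney. For the 5 higher genes the choice of house mouse group mattered less in brain. Spretus minus each of the 4 groups ran from 0.74 to 0.95 for Pip4k2a, from 1.68 to 1.92 for Tomm40l, from 1.14 to 1.46 for Ak8, from 0.96 to 1.27 for Ubr4 and from 0.94 to 1.24 for Cdk3 in brain.

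Cecr2 was lower by probe 1 and not by probe 2. Probe 1 read -0.76, -0.25 and -0.68 in spretus brains, against -0.25 to 0.62 (median 0.10) in house mice, where dom 13 lay just below spretus 2 (both -0.25). In liver/kidney it read -1.05, -1.14 and -0.59 in spretus, against -0.48 to 1.30 (median 0.22) in house mice. In testis it read -0.40, -0.43 and -0.47 in spretus, against -0.17 to 0.51 (median 0.12) in house mice. Liver/kidney and testis showed no overlap, and the spretus arrays had an SD of 0.04 in testis, against 0.28 in brain and 0.30 in liver/kidney. The probe 1 difference was -0.73 ± 0.11 (brain), -1.11 ± 0.16 (liver/kidney) and -0.58 ± 0.08 (testis), with SE, and -0.73 ± 0.13, -1.11 ± 0.18 and -0.58 ± 0.06 within set 2. Probe 2 read 0.03, 0.10 and 0.24 in spretus brains, -0.04, -0.01 and 0.00 in spretus liver/kidney, and 0.05, 0.09 and 0.07 in spretus testes. House mice read -0.44 to 0.14, -0.27 to 0.10 and -0.02 to 0.20 by probe 2 in the same tissues. The r between the probes was -0.14 over the 72 arrays. Which part of the Cecr2 transcript each probe reads is not known here, since no probe sequence was used.

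**Figure D3:**
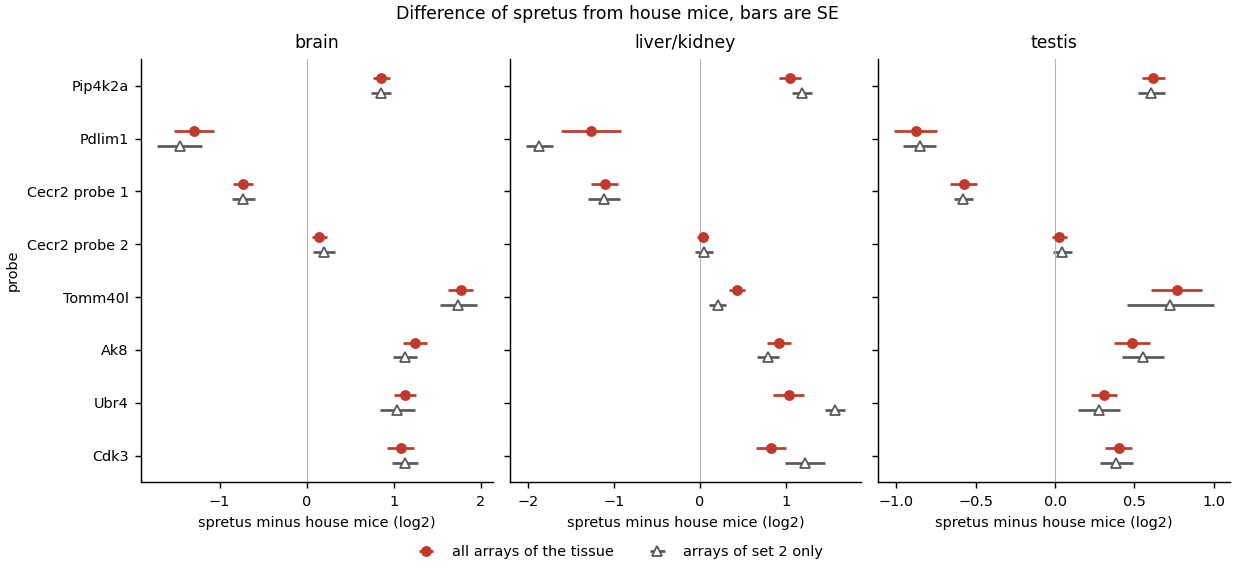
Spretus minus house mice as a log2 difference with its SE for each probe and tissue, over all arrays (filled circles) and over the arrays of set 2 (open triangles). The intervals overlap for most probes, and in liver/kidney the set 2 value lies farther from 0 for Ubr4 (1.57 against 1.04) and Pdlim1 (-1.87 against -1.26) and nearer to 0 for Tomm40l (0.21 against 0.43). There set 2 has cas as its only house mice and lacks spretus 2, so the values compare unlike arrays. Spretus minus cas for Pdlim1 in liver/kidney was -1.93 over all arrays.

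Spretus lay outside the range of all house mice for 6 of the 8 probes in brain and for 3 each in liver/kidney and testis, where 2.25%, 1.54% and 3.64% of all probes did so. Within set 2 it did so for 7, 7 and 4 of the 8 probes, where 11.2%, 25.8% and 11.2% of all probes did. These counts rest on the values the genes were picked on. Of 59 measured markers of cell types, 0 (brain), 8 (liver/kidney) and 8 (testis) were past the threshold in spretus. That is 0.0%, 13.6% and 13.6% of them, where 4.43%, 8.54% and 10.1% of all genes had a probe past it. In liver/kidney, 4 of 9 hepatocyte markers were lower in spretus (Alb, Ttr, Trf and Fgb), and the mean of the list ran from -0.35 to 0.01 in spretus, against 0.10 to 0.50 in house mice. Of 8 kidney tubule markers Umod alone was higher, with a list mean of -0.02 to 0.13 in spretus, against -0.42 to 0.23 in house mice. In testis 2 of 7 spermatid markers (Prm1 and Odf1) and 1 of 6 spermatocyte markers (Ldhc) were lower, with list means of -0.20 to 0.27 and -0.42 to 0.04 in spretus, against -0.32 to 0.48 and -0.36 to 0.04 in house mice, so most of each spretus range lies inside that of house mice. In the other marker lists and tissues, Sycp3 (lower), Sox9 and Hbb-b2 (higher) passed in liver/kidney, and Syn1, Gad1, Umod, Sox9 and Clu (higher, the last by 1 of 2 probes with the other lower) passed in testis. The part of these markers in the values of the 7 genes was not tested.

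Among house mice, the comparisons that the choice of genes did not use, none of the 8 probes was past an adjusted p of 0.05 by limma in any of 3 contrasts and 3 tissues. The background was 0.097%, 0.0436% and 0.0% of all probes for ssp against the average of dom, mus and cas in brain, liver/kidney and testis. For cas against the average of dom and mus it was 0.0097%, 1.11% and 0.0193%, and for mus minus dom it was 0.223%, 0.591% and 0.0%. Of the 72 combinations of probe, contrast and tissue, 8 had an unadjusted p under 0.05. They came from Pdlim1 (4), Cecr2 probe 1 (3) and Ubr4 (1). By contrast and tissue, 3 of the 8 probes did so for ssp in brain, 1 for ssp in liver/kidney and 0 for ssp in testis, where 15.7%, 10.6% and 4.86% of all probes did. For cas it was 1 in each tissue, where 12.0%, 14.8% and 6.25% of all probes did, and for mus minus dom 0, 1 and 0, where 9.33%, 6.32% and 6.59% did. Pip4k2a, Tomm40l, Ak8, Cdk3 and Cecr2 probe 2 had none.

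Among house mice, Pdlim1 had its 2 highest group means in cas and ssp in each tissue. The cas values were 1.12, 0.59 and 0.50 in brain, 0.80, 1.06 and 0.71 in liver/kidney and 0.68, 0.34 and 0.31 in testis. All 9 cas arrays lay above 0. Cas minus dom and mus, averaged, was 0.68 ± 0.24 in brain (adjusted p = 0.283 by limma), 1.04 ± 0.36 in liver/kidney (adjusted p = 0.167 by limma) and 0.35 ± 0.14 in testis (adjusted p = 0.660 by limma), where it was 0.23 without cas 1. In liver/kidney cas lay above all dom and mus arrays, of which the highest was dom 1 at 0.53, and for 2.75% of all probes cas lay outside the range of dom and mus on either side. In liver/kidney cas lies in set 2 and dom and mus in set 1, so group and set cannot be told apart there. With the set as a term the difference was 0.72 ± 0.34 in brain and 0.44 ± 0.18 in testis. Ssp minus the other house mice was 0.62 ± 0.18 in brain (adjusted p = 0.139 by limma), or 0.57 ± 0.19 with the set as a term. In liver/kidney it was 0.10 ± 0.28 (adjusted p = 0.935 by limma), the smallest of the 3, and in testis 0.17 ± 0.11 (adjusted p = 0.999 by limma).

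Pdlim1 also varied among the ssp arrays more than in any other group. The 6 ssp arrays had an SD of 1.12 in liver/kidney, against 0.18 to 0.33 in the other groups including spretus. By number in the array title, ssp 4 read 1.91, 1.14 and 0.94 in brain, liver/kidney and testis, and ssp 2 read 1.10, 1.70 and 0.57. Ssp 1 read 0.04, -0.85 and 0.01, the lowest of the group in brain and testis, and ssp 5 read 0.77, -1.18 and 0.28. The same-numbered arrays thus lay high together for ssp 2 and ssp 4, while ssp 5 was low in liver/kidney alone. The labels do not say that arrays of 1 number are of 1 mouse. All 6 ssp arrays of liver/kidney belong to set 1, so the spread there is within a set.

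**Figure D4:**
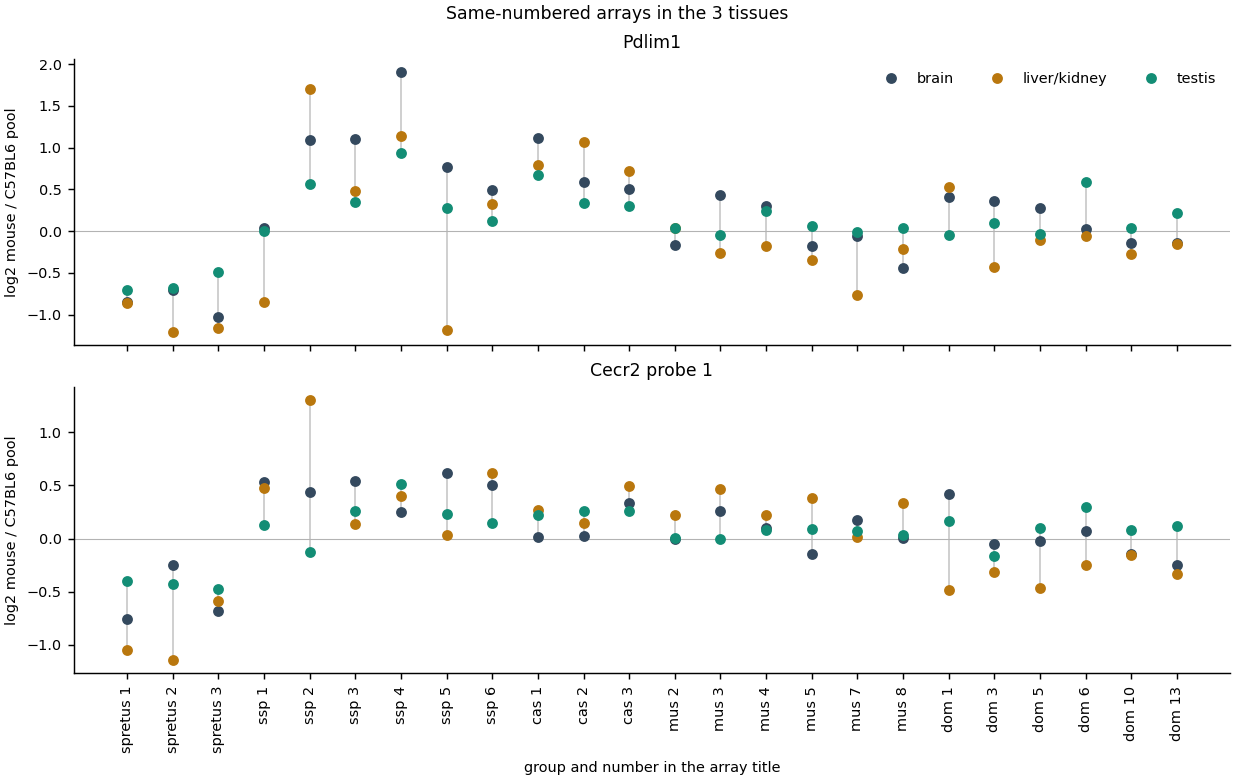
Log2 ratio of Pdlim1 and Cecr2 probe 1 for each group and number in the array titles, with 1 point per tissue and a line joining the lowest and highest. Spretus arrays lie below 0 in all 3 tissues for both, ssp spans -1.18 to 1.91 for Pdlim1, and for Cecr2 probe 1 dom lies below 0 in liver/kidney on all 6 arrays.

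For Cecr2 probe 1, mus and dom did not overlap in liver/kidney. The mus arrays ran from 0.01 to 0.47 (median 0.28) and the dom arrays from -0.48 to -0.15 (median -0.32), and the groups did not overlap for 1.42% of all probes in that comparison. Mus minus dom was 0.60 ± 0.15 (SE), with an adjusted p of 0.0715 by limma, and all 12 arrays are of set 1. In brain mus averaged 0.06 ± 0.14 and dom 0.00 ± 0.23, and in testis mus averaged 0.05 ± 0.04 and dom 0.10 ± 0.15 (SD, n = 6 each), within their spread of each other. The limma test over all 72 arrays of whether mus minus dom was equal in the tissues gave this probe an adjusted p of 0.125. For that test 0 of the 8 probes were past the threshold in any of the 3 contrasts, where 0.204% (mus minus dom), 1.34% (cas minus dom and mus) and 0.0486% (ssp minus dom, mus and cas) of all probes were. With no adjustment, Cecr2 probe 1 had p under 0.05 for mus minus dom and for ssp, and no other probe did so in any contrast.

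Probe 1 of Cecr2 had its highest house mouse mean in ssp in brain and liver/kidney. In brain the 6 ssp arrays ran from 0.25 to 0.62 (median 0.52), against 0.02, 0.03 and 0.33 in cas, -0.14 to 0.26 in mus and -0.25 to 0.42 in dom. Ssp minus the other house mice was 0.42 ± 0.09 (SE), with an adjusted p of 0.0595 by limma, and 0.46 ± 0.09 with the set as a term, past the threshold (adjusted p = 0.0469 by limma). In liver/kidney it was 0.41 ± 0.13 with an adjusted p of 0.235 by limma, where ssp ran from 0.03 to 1.30, and it was 0.25 without ssp 2, the array at 1.30. Within set 1 of liver/kidney, ssp minus dom and mus was 0.52 ± 0.13 with an adjusted p of 0.0456 by limma, and 1.6% of all probes were past the threshold there. Ubr4 in brain was 0.28 ± 0.13 in ssp, against -0.03 ± 0.15 in cas, 0.15 ± 0.09 in mus and 0.05 ± 0.06 in dom (SD), and its ssp difference was 0.22 ± 0.10 (SE, adjusted p = 0.278 by limma), or 0.13 for ssp minus dom and mus within set 1.

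**Figure D5:**
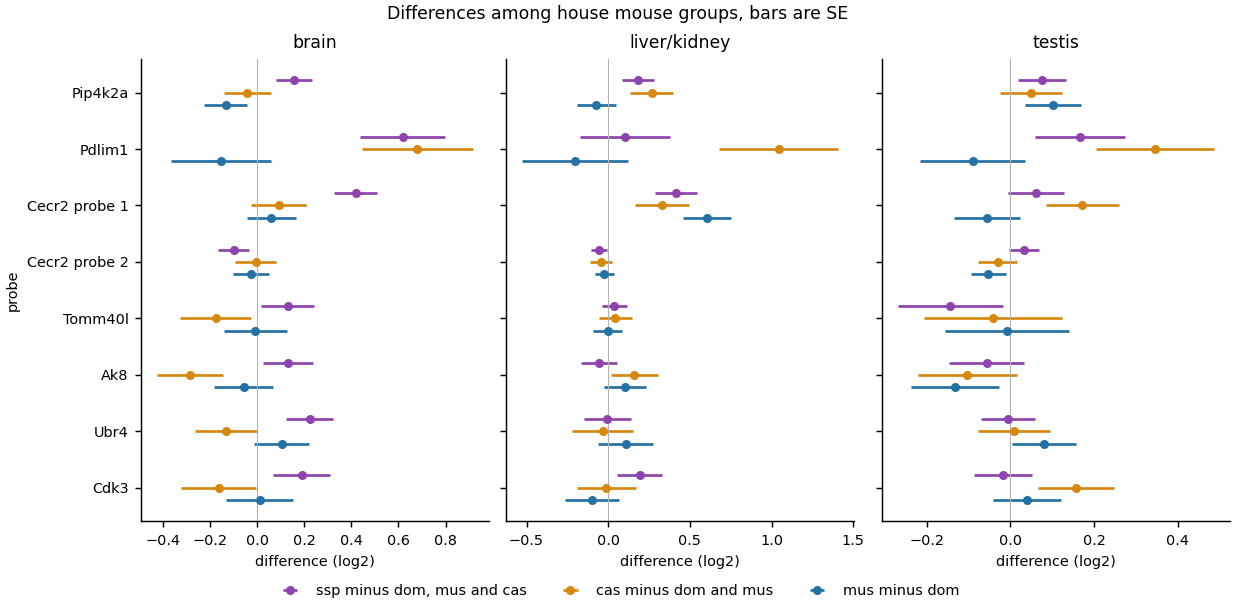
Differences among house mouse groups as log2 values with their SE for each probe and tissue, for ssp minus dom, mus and cas, cas minus dom and mus, and mus minus dom. Pdlim1 in cas (1.04 in liver/kidney) and Cecr2 probe 1 for mus minus dom (0.60 in liver/kidney) lie farthest from 0 in that tissue, and none was past an adjusted p of 0.05.

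Relatives of the 7 genes passed the threshold in spretus about as often as all genes. Over 62 measured genes in 7 lists, 0 were higher and 2 lower in spretus brain, 1 higher and 3 lower in liver/kidney, and 4 higher and 4 lower in testis, past an adjusted p of 0.05 by limma. That is 3.2%, 6.5% and 12.9% of them, where the share of all genes with any probe past it was 4.43%, 8.54% and 10.1%, so the counts say nothing particular to the relatives. Of 5 phosphoinositide kinases and 6 PDZ-LIM proteins, the relatives of Pip4k2a and Pdlim1, none passed in any tissue. The list medians were 0.14, 0.07 and 0.10 for the kinases and -0.12, 0.03 and 0.07 for the PDZ-LIM proteins in brain, liver/kidney and testis, against medians of all genes of 0.01, -0.00 and 0.01.

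Among the 11 chromatin remodelling genes, Baz2a, a bromodomain partner of an ISWI complex, fell by 0.29 in brain and by 0.40 in liver/kidney, and Baz1a fell by 0.54 in testis. Among the 12 genes of the mitochondrial outer membrane import list, Tomm70a, a receptor for incoming proteins, fell by 0.44 in liver/kidney by 1 of its probes, the other reading 0.20. Tomm5 fell by 0.23 and Tomm34 by 0.27 in testis. No gene of that list passed the threshold as higher in spretus, whereas Tomm40l was higher in all 3 tissues.

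Of the 7 ubiquitin ligase genes, Ubr3 fell by 0.33 in brain, and Ubr2, needed for male meiosis in mice, rose by 1.78 ± 0.11 (SE) in testis by 1 probe, with 0.13 by the other. Of 6 adenylate and related kinases, Cmpk1 rose by 0.61 in liver/kidney and Ak1 by 0.24 in testis. Of 15 genes of the cyclin-dependent kinase list, Ccnc, which encodes the cyclin C partner of Cdk3, fell by 0.85 ± 0.16 (SE) in liver/kidney, where Cdk3 was higher. In testis Cdk5 rose by 0.37 and Cdk7 by 0.44, and Cdk13 fell by 0.29. Among house mice, 3 calls were made in these lists, where 0.25% (mus minus dom in brain), 0.755% (mus minus dom in liver/kidney) and 0.0954% (ssp in brain) of all genes were called. Tomm20, an import receptor, was higher in mus than in dom in brain (0.51 ± 0.11), and Cdk5 was higher in mus than in dom in liver/kidney (0.88 ± 0.14) and in ssp than in other house mice in brain (0.38 ± 0.07).

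The profiles most like each probe were ranked by Pearson's r over all 72 arrays, which share the C57BL6 pools, and r is a description with no test. Ubr4 was nearest to Tbx2 (r = 0.80), Pla2g4d (0.80) and Pip4k2a (0.79), and Pip4k2a to Ubr4, Snhg10 (0.72) and Tmem50b (0.71). Tomm40l was nearest to Polr1b (0.74), Ak8 (0.72) and Ccdc127 (0.70). Ak8 was nearest to Tomm40l, Ubr4 (0.70) and Pip4k2a (0.68), and Cdk3 to Ubr4 (0.69), Pip4k2a (0.68) and Hoxd10 (0.67). Over the 63 house mouse arrays the r between Ubr4 and Pip4k2a was 0.16 and that between Tomm40l and Ak8 was 0.25. Over all the pairs just named it ran from -0.14 (Pip4k2a with Snhg10) to 0.43 (Cdk3 with Hoxd10). The genes were picked for a shift in spretus, so a higher r with the 9 spretus arrays follows from the choice.

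For the probes lower in spretus, Pdlim1 and Cecr2 probe 1, more of the likeness was present within house mice. Their partners too were ranked with the spretus arrays included. Cecr2 probe 1 was nearest to Herc6 (r = 0.76, and 0.73 over house mice), Osbpl6 (0.75, and 0.51) and Ripor1 (0.73, and 0.46). Pdlim1 was nearest to Fuca2 (0.67, and 0.53), Cecr2 probe 1 (0.65, and 0.44) and Pcdh9 (0.61, and 0.56). Cecr2 probe 2, which was not lower in spretus, was nearest to Cmbl (0.67), Gnb4 (0.65) and Stt3b (0.61). Over house mice those r were 0.70, 0.65 and 0.63.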

How the data were processed

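RNA of 72 male mouse samples, 24 per tissue, was hybridised with a pool of C57BL6 on arrays with 2 channels, per the labels. What the authors deposited are processed log ratios, read here as log2 of mouse over pool. The base and the direction are not stated, and rest on the channel labels (pool in channel 1, mouse in channel 2). How signals were scanned and normalised was not given in the sources used here, and no dye swap is labelled. The number of arrays limits the precision.

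Neighbouring spots of a probe were averaged, 1488 single spots were dropped, and a control repeated over 232 pairs became 1 probe. Each array was centred on its median (deposited medians -0.04 to 0.06). Probes with at least 2 values in each group, 20621 (brain), 20652 (liver/kidney) and 20754 (testis), were fitted with limma 3.58.1 in R 4.3.3, with 1 coefficient per group, all 24 arrays of a tissue sharing the spread, and two-sided Benjamini-Hochberg adjustment over all probes. Tables used pandas 2.3.3 under Python 3.11.15, and plots matplotlib 3.10.9. The test of equal contrasts in the tissues used all 72 arrays with group and number in the title as a random block (consensus correlation 0.02), though the labels do not say that same-numbered arrays of a group are of 1 mouse. The fit was also run on simulated data with independent noise. Those data held no effect of the set of arrays, so the run says nothing of such an effect.

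The members and the lists of related genes and markers were chosen with earlier results of these data known. All member probes are named. Similar profiles are the 3 named genes of highest r, and related genes are named where a probe passed. Replicates are individual males, per the labels. Sets of arrays were made by clustering the pattern of spots without a value, with the number of sets fixed at 3. Alternatives were quantile normalisation, no centring, array weights, single spots, complete probes, the number in the title as a block, the set as a term or random block, leaving out each array and, chosen after seeing the data, single sets of arrays.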

Additional observations from a re-analysis of the deposited data

Results flagged for a closer look

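Of 72 groups of a probe in a tissue with 6 arrays each, 6 had an array far from the other 5, where chance gives about 1 in 20. For Pdlim1 in testis, mus 4 read 0.24, with the next mus array at 0.06. For Cecr2 probe 2 in brain, ssp 4 read -0.44, with the next ssp array at -0.13. Tomm40l had a low dom 13 in brain (-0.31, next -0.07) and a low ssp 2 in testis (-0.63, next -0.06). Cdk3 had a low mus 2 in liver/kidney (-0.93, next -0.34) and a low dom 10 in testis (-0.47, next -0.08).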

How the results depend on the processing

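The direction of spretus minus house mice was the same under all alternatives for the 7 probes that were past the threshold. The value of Cecr2 probe 2, spretus minus house mice, testis, which was near 0, turned to -0.000852 with quantile normalisation. The number of the 8 probes past the threshold in spretus was 4 in brain with set 2 alone. In liver/kidney it was 4 with the number in the title as a replicate block, 4 with the set as a random block (without Pdlim1, Tomm40l and Cdk3 both times) and 0 with set 2 alone, where 5 arrays remain and 0 of 21097 probes passed. In testis it was 4 with quantile normalisation, 4 with the first spot alone and 3 with set 2 alone. For ssp in brain it was 1 with the set as a term and 1 with the second spot (Cecr2 probe 1 both times), for ssp in liver/kidney 1 with set 1 alone, and for mus minus dom in liver/kidney 1 with array weights (Cecr2 probe 1, adjusted p = 0.0215 by limma). Leaving out single arrays gave 7 to 7 in spretus brain, 5 to 7 in spretus liver/kidney, 5 to 7 in spretus testis, 0 to 1 for ssp in brain, 0 to 1 for mus minus dom in liver/kidney and 0 to 0 in the other 7 counts. Cecr2 probe 1 in ssp brain passed without cas 2, cas 3 or dom 1, and Pdlim1 there passed without ssp 1 (0.79, adjusted p = 0.0492 by limma). Cecr2 probe 1 for mus minus dom in liver/kidney passed without ssp 2 (SE 0.11) or ssp 5 (SE 0.14), against an SE of 0.15 over all arrays. The cause of the other changes was not tested. The share of all probes past the threshold under these alternatives is given here only for single sets of arrays. For the rest, a change in the members was not set against the change over all probes. The set as a term could not be fitted for spretus, cas and ssp in liver/kidney, where it coincides with groups. Same-numbered arrays of different groups deviated with a median r of -0.01, 0.00 and -0.03 in brain, liver/kidney and testis over 27 pairs each. Single pairs ran from -0.08 to 0.10, from -0.12 to 0.14 and from -0.19 to 0.32. Whether any pair shares more than a number was not tested. Signal over background was not used here, and 3 spretus arrays per tissue limit these values.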
